A study of Mus musculus with 10 samples.

Results

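The genes described here were 10 members of the CREB signalling axis of the mouse: the factors Crem, Creb1, Atf1, Atf2 and Atf3, the CREB-regulated coactivators Crtc1, Crtc2 and Crtc3, the kinase gene Sik1 and the acetyltransferase gene Crebbp. Members were found by gene name, and every transcript of theirs in the counts was taken, which gave 28 of 22534 transcripts from 8 of the 10 genes. Of these, 25 transcripts of 5 genes (15 of Crem, 7 of Atf2, and 1 each of Atf3, Crtc3 and Sik1) were among the 7262 transcripts of 4369 genes that were measured, meaning that RNAseq and RF depth- and length-scaled read values (RPKM) both reached 10 in one and the same culture, and did so in 2 or more cultures. The genes were chosen because of how they differed between KCl and untreated cultures in these libraries, so their own differences are given as a description and without p-values.

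Cortical cells of P0 FVB mice were grown for 7 days as mixed cultures of neurons and glia, after which 3 cultures (numbered 1 to 3) stayed untreated and the other 2 (4 and 5) were depolarized for 3 h with KCl at 55 mM. All cultures received cycloheximide, which halts ribosomes on the mRNA, at 100 ug/ml for 7 min before lysis. RNAseq libraries, which measured transcript abundance, and ribosome footprinting (RF) libraries, which measured ribosomal occupancy, were made from the lysate of each culture. The study's methods state that 1 more KCl replicate was dropped because few reads were obtained, and it was not analysed here.

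CREB and its relatives CREM and ATF1 bind the cAMP response element (CRE) of promoters. Calcium entry or cAMP activates kinases that phosphorylate these factors, which then recruit the acetyltransferase CBP, the product of Crebbp, while dephosphorylated CRTC proteins enter the nucleus and bind CREB at the same sites. The pathway is known for feedback by its own targets: SIK1 phosphorylates CRTCs and so returns them to the cytoplasm, and an internal promoter of Crem gives ICER, a short protein with the DNA-binding domain and no activation domain, which represses CRE-driven genes. ATF2 and ATF3 are more distant members of the same bZIP class, and ATF3 is induced by stress and by neuronal activity.

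Promoter sequence was read for 7 of the 10 genes from RefSeq (GRCm38.p6, from 250 bases before to 50 after each start). The tables used here held no entry for Crem, Sik1 or Crtc2. The palindromic CRE, TGACGTCA, was in 1.79% of 32851 promoters and in none of the 7 members. The variant TTACGTCA was in 0.499% of promoters and, among the members, only in that of Atf3, where it began 10 bases before the start. The core TGACG, which both longer motifs contain on one strand or the other, was in 20.8% of promoters and in those of Atf1 and Atf3. All motifs were searched on both strands. The windows below are shown because they hold the match of the only measured member with one. For comparison, they also hold those of 3 measured target genes with a match, described further on. They give the 5′ to 3′ strand of each gene, with every match in capitals: Atf3 at chr1:191183336-191183395 (minus strand), Dusp1 at chr17:26508584-26508643 (minus), Fos at chr12:85473733-85473792 (plus) and Nr4a2 at chr2:57124172-57124231 (minus). Where a promoter held several matches, the one farthest from the start was printed.
Atf3: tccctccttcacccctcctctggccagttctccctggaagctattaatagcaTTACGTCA
Dusp1: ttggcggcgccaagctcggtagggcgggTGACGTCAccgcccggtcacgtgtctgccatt
Fos: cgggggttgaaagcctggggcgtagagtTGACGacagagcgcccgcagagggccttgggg
Nr4a2: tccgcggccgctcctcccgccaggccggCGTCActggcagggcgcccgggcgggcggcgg
The match was the whole palindrome in Dusp1, the variant in Atf3 and the core in Fos and Nr4a2. A match is a description of these letters and was not measured as a bound site. Over the 78 genes of the pathway lists with an entry, 8 of 134 promoters held the palindrome, 2 the variant and 58 the core.

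The RNAseq libraries held 3056286 to 3629959 counted reads and the RF libraries 1463654 to 7719915, the fewest in untreated culture 3 and KCl culture 4 (1608235). Neuron markers (7 of 8 in the counts, Map2 absent) summed to between 540 and 820 normalized RNAseq CPM (reads scaled to the depth of the library) in untreated and between 678 and 691 in KCl cultures. Astrocyte markers (6 of 6) summed to between 12520 and 13420 in untreated cultures and lower, between 10460 and 10840, in KCl cultures, and 3 of the 6 fell in the edgeR fit. Microglial markers (5 of 5) lay between 111 and 138 in untreated and between 85.1 and 116 in KCl cultures, oligodendrocyte lineage markers (6 of 6) between 1499 and 1636 and between 1446 and 1458, endothelial markers (3 of 3) between 4.50 and 7.802 and between 3.67 and 4.93, and fibroblast markers (2 of 3, Col1a2 absent) between 525 and 636 and between 445 and 508. The oligodendrocyte lineage and fibroblast sums thus also lay lower in KCl cultures. Of their measured markers, 1 of 5 and 1 of 2 fell in the edgeR fit, and no measured neuron or microglial marker did. Over all 4369 genes, 15.4% were called lower in RNAseq. No marker that was in the counts was at 0 in all RNAseq libraries. The part of these shifts in the results was not tested, and in bulk cultures fewer cells of a type and less RNA per cell cannot be told apart.

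Crem (chromosome 18, 3266048 to 3337748, minus strand, GRCm38) had the most member transcripts. Its reference transcript, ENSMUST00000082141, with 9 exons and a 924 nt CDS, had RNAseq values of 12.45, 23.8 and 22.1 normalized CPM in untreated cultures 1 to 3 and of 183 and 119 in KCl cultures 4 and 5. Both KCl values lay above every untreated value, and the log2 fold change was 2.95 ± 0.21 (approximate SE), or 7.74-fold. Its CDS carried 13.0, 13.0 and 11.2 normalized RF CPM in untreated cultures and 97.8 and 85.4 in KCl cultures. The RF groups did not overlap either, and the log2 fold change was 2.82 ± 0.18, or 7.08-fold. These RF values come from 75, 64 and 12 untreated and 110 and 184 KCl footprints.

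**Figure D1:**
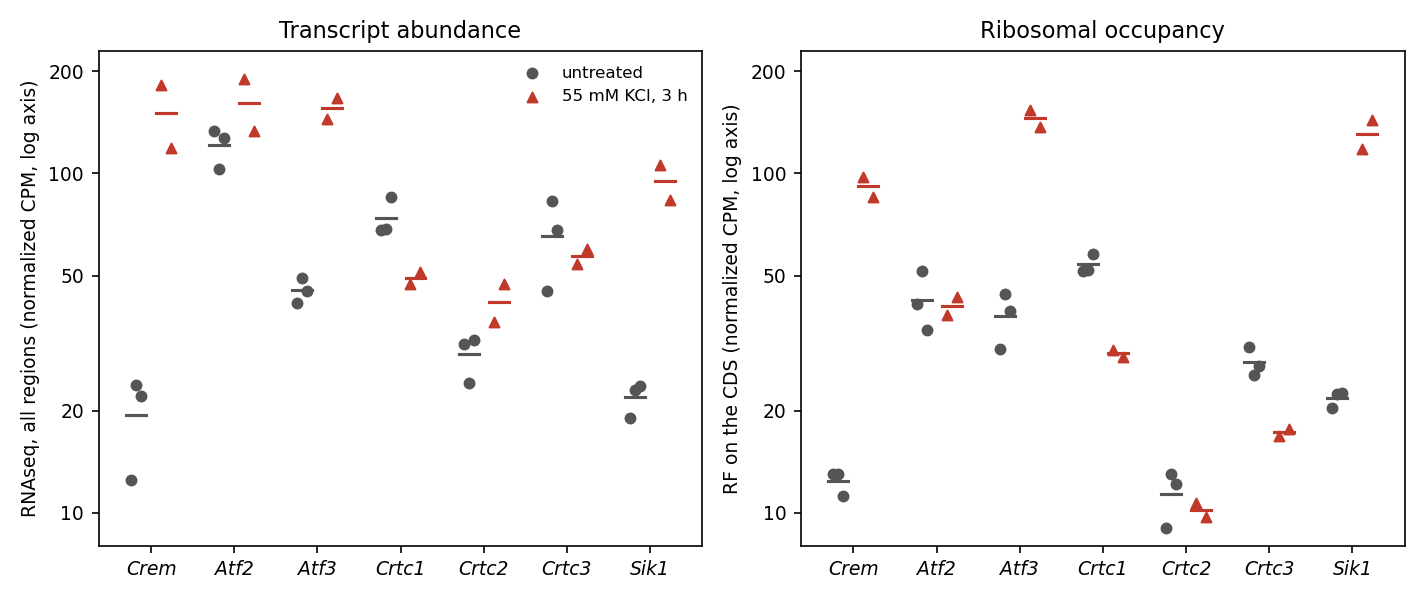
Normalized CPM (log axis) of the representative transcript of 7 members, RNAseq over all regions at left and RF on the CDS at right, with 1 point per library (grey circles, untreated cultures 1 to 3; red triangles, KCl cultures 4 and 5) and a bar at the mean of each group. The KCl points of Crem, Atf3 and Sik1 lie above all untreated points in both assays, and those of Crtc1 lie below them in both.

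All 15 Crem transcripts were higher in the KCl cultures, with both KCl values above all 3 untreated values in RNAseq and in RF for each of them. Over all measured transcripts, 27.6% in RNAseq and 30.2% in RF had their groups apart in that direction. The log2 fold changes ranged from 2.58 to 3.80 in RNAseq and from 2.32 to 3.57 in RF. The fits called 15 of 15 higher in both assays, where 17.9% of all measured transcripts were called higher in RNAseq and 20.8% in RF. Nothing is read from these counts, since the gene was chosen by this contrast. The 15 are also not separate observations, because reads on a shared exon were counted for each transcript that has it, and 10 of the 15 passed the filter only through the KCl cultures, so that a difference was required of them.

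The transcripts differed by where they start. Of the 15, 9 begin at 1 of 3 upstream first exons, the farthest downstream of which lies 37.9 kb from the most upstream one, and have 6 to 9 coding exons and a CDS of 729 to 1071 nt. The other 6 begin at 2 internal first exons, 55.7 and 56.4 kb from the most upstream one, as ICER transcripts do, and have 2 to 4 coding exons and a CDS of 285 to 375 nt. The RNAseq log2 fold change had a median of 2.95 (range 2.58 to 3.15) among the 9 upstream transcripts and of 3.43 (2.75 to 3.80) among the 6 internal ones. The RF medians were 2.78 (2.32 to 2.88) and 3.42 (3.22 to 3.57), so the ranges of RF changes did not overlap between the kinds of transcript. The last coding exon also varied: the 10 transcripts that end at the upstream stop codon had a median RF change of 3.14, and the 5 that end at the downstream one a median of 2.54.

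**Figure D2:**
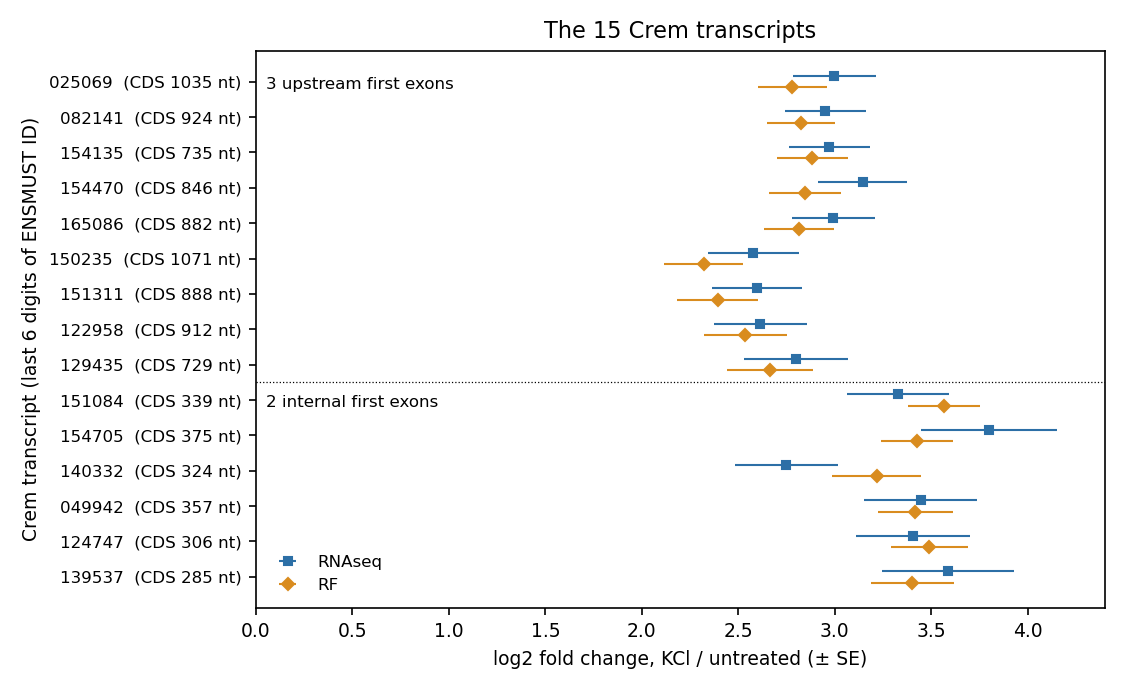
Log2 fold change of KCl over untreated cultures for the 15 Crem transcripts, with approximate SE bars, for RNAseq (blue squares) and RF (orange diamonds). Transcripts above the dotted line start at 1 of 3 upstream first exons and those below it at 1 of 2 internal first exons, where the RF values lie between 3.22 and 3.57.

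Since shared exons carry the same reads in each transcript, the exons were separated by subtraction, a step chosen after the values had been seen. The whole 306 nt CDS of the internal transcript ENSMUST00000124747 lies within the 924 nt CDS of ENSMUST00000082141. The difference between their counts gives the reads on the 618 nt of the longer CDS that lie outside the internal CDS. Of the internal transcript's 5′UTR, 29 nt are coding in 7 other Crem transcripts. The 618 nt may therefore hold some bases of the internal transcript, and reads from it. The shared 306 nt had 41, 39 and 8 footprints in untreated cultures and 105 and 168 in KCl cultures, or 7.10, 7.92 and 7.49 against 93.4 and 77.9 normalized CPM. The upstream 618 nt had 34, 25 and 4 footprints in untreated cultures and 5 and 16 in KCl cultures, or 5.89, 5.08 and 3.75 against 4.45 and 7.42 normalized CPM. The shared exons were thus 11.4-fold higher in KCl cultures with groups that did not overlap, and the upstream coding exons were 1.21-fold higher with groups that overlapped.

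The counting interval of each ratio was computed from the pooled footprints (95%, exact Clopper-Pearson, counting error only, since PCR reads without molecular identifiers are not independent molecules). It ran from 8.72 to 14.3 around a pooled ratio of 11.1 for the shared exons and from 0.693 to 1.99 around 1.196 for the upstream ones. The spread between cultures is not part of it. RNAseq reads were fewer and lay in the same way: 2, 5 and 6 untreated and 70 and 61 KCl reads on the shared exons, against 5, 2 and 3 untreated and 1 and 9 KCl reads upstream. The pooled RNAseq ratio was 14.8 (8.36 to 28.5) for the shared exons and 1.47 (0.549 to 3.93) for the upstream ones, which rest on 10 reads in each group. The upstream RNAseq value turned with 1 culture, since 9 of the 10 KCl reads came from culture 5: on the log2 scale it was -1.68 without KCl culture 5 and 1.32 without KCl culture 4.

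**Figure D3:**
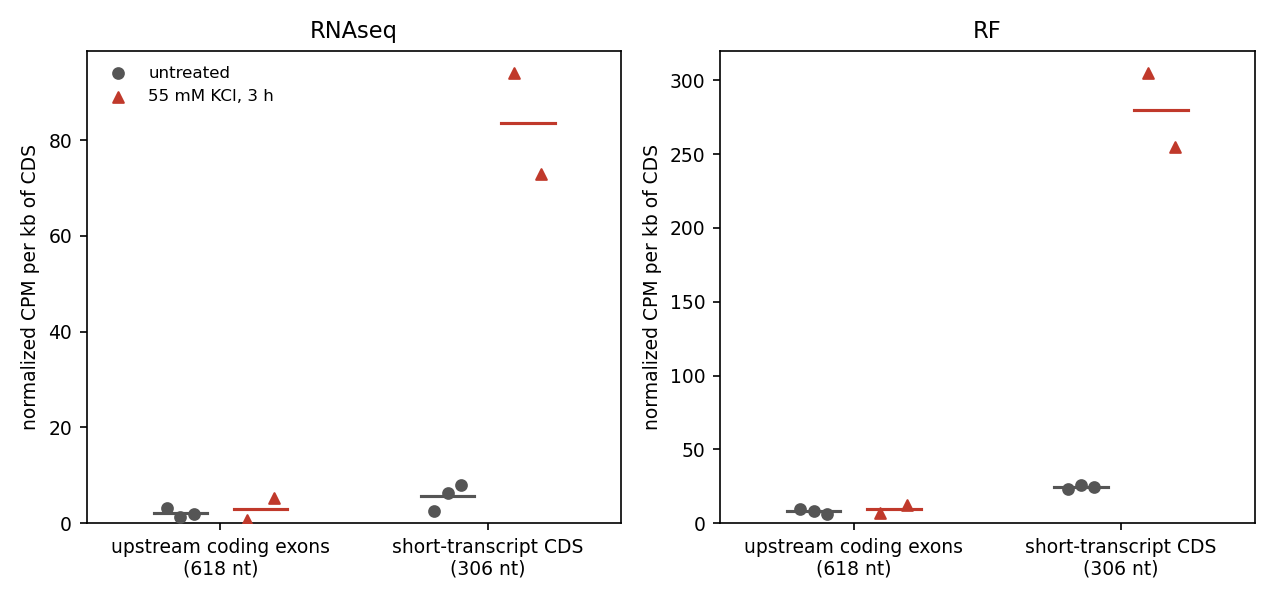
Normalized CPM per kilobase of CDS on the 618 nt of the longer Crem CDS outside the short internal CDS (upstream exons) and on the 306 nt shared with it, for RNAseq (left) and RF (right), with 1 point per library (grey circles, untreated; red triangles, KCl) and a bar at each mean. In RF the shared exons go from a mean of 24.5 to 280, and the upstream exons from 7.93 to 9.60.

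As a share of all footprints on the 924 nt CDS, the shared 306 nt, which are 33.1% of its length, held 54.7% (95% interval 42.8 to 66.2), 60.9% (47.9 to 72.9) and 66.7% (34.9 to 90.1) without KCl. In the KCl cultures they held 95.5% (89.7 to 98.5) and 91.3% (86.3 to 94.9). The KCl shares lay above the untreated ones, and the intervals of untreated culture 3, with 12 footprints, reached those of the KCl cultures. With ENSMUST00000165086 or ENSMUST00000154135 as the long transcript, the RF ratio of the upstream exons was 1.38 or 1.29 and the RNAseq ratio 2.62 or 1.78, from 6 or 8 untreated and 11 or 10 KCl reads. The groups overlapped for both of these pairs and in both assays. Reads that span the junction into the shared exons are assigned to one side or the other and make these remainders approximate.

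The 5′UTRs of the first exons held few reads. The 57 nt 5′UTR of the internal transcript ENSMUST00000140332 had no RNAseq read without KCl and 5 and 3 with it, and 1, 0 and 0 footprints against 4 and 6. The other internal 5′UTRs with footprints also held them without KCl. That of ENSMUST00000049942 had 15, 11 and 1 untreated and 5 and 14 KCl footprints, that of ENSMUST00000124747 had 20, 12 and 1 against 6 and 22, and that of ENSMUST00000139537 had 15, 12 and 1 against 8 and 17. The footprint counts of these 3 overlapped between groups, and their normalized CPM did not, at 3.46, 2.44 and 0.936 against 5.34 and 10.2 for the second. The 264 nt 5′UTR of ENSMUST00000082141, at the most upstream start, had 0, 0 and 1 RNAseq reads in untreated and none in KCl cultures, and 10, 6 and 0 against 6 and 1 footprints, with groups that overlapped. The gene Gm6225 is annotated on the opposite strand over first exons of Crem, and the RNAseq kit does not mark strand, so their RNAseq reads cannot be told apart there.

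Atf3 (chromosome 1, 191170296 to 191218039, minus strand) had a 543 nt CDS and passed the filter in all 5 cultures. Its RNAseq values were 41.6, 49.1 and 45.0 normalized CPM in untreated cultures and 145 and 167 in KCl cultures, and its RF values were 30.3, 44.1 and 39.3 against 154 and 137. Neither pair of groups overlapped, and the log2 fold changes were 1.79 ± 0.16 in RNAseq and 1.95 ± 0.16 in RF.

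Atf2 (chromosome 2, 73816509 to 73892639, minus strand) encodes a constitutively expressed factor that forms dimers with JUN proteins. Its representative transcript, ENSMUST00000055833, had 134, 103 and 127 normalized RNAseq CPM in untreated cultures and 190 and 133 in KCl cultures. KCl culture 5 lay within the untreated range, and the log2 fold change of 0.41 ± 0.16 became 0.13 without KCl culture 4 and 0.86 when only reads on the CDS were counted. In RF the values were 41.2, 51.6 and 34.65 against 38.2 and 43.1, with overlapping groups and a log2 fold change of -0.10 ± 0.18. The 7 Atf2 transcripts, which share reads, ranged from 0.40 to 0.78 in RNAseq and from -0.13 to 0.02 in RF.

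Atf2 also carried many footprints upstream of its CDS. Of the footprints on the 5′UTR and CDS, the 333 nt 5′UTR held 31.4% (95% interval 26.6 to 36.6), 18.6% (14.4 to 23.4) and 36.2% (24.0 to 49.9) without KCl and 32.8% (21.6 to 45.7) and 40.8% (33.0 to 48.9) with it. The groups overlapped. Over all transcripts in a library, 5′UTRs took 6.04% to 8.56% of the RF reads. In Atf3 the share was 9.33%, 10.3% and 10.6% in untreated and 10.8% and 16.4% in KCl cultures.

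Atf1 was listed by 1 transcript with no RNAseq read and no CDS footprint in any library, and with 12, 10 and 3 untreated and 1 and 8 KCl footprints on its 5′UTR. No transcript of Creb1 or Crebbp was in the counts, and neither was analysed here.

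Among the coactivators, Crtc1 (chromosome 8, 70382355 to 70439579, minus strand), which is enriched in neurons and shuttles between synapse and nucleus, was below the filter. Its RNAseq values were 68.1, 68.65 and 85.45 normalized CPM in untreated cultures and 47.3 and 51.3 in KCl cultures. Its RF values were 51.8, 52.0 and 58.05 against 30.2 and 28.8. Both KCl cultures lay below every untreated culture in each assay, and in the fit without the filter the log2 fold changes were -0.53 ± 0.19 in RNAseq and -0.79 ± 0.20 in RF. The share of all transcripts with groups apart in the lower direction was not computed, here or for Crtc3 below, so nothing is read from it.

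Crtc3 (chromosome 7, 80586627 to 80688877, minus strand) passed the filter only through untreated cultures. Its RNAseq groups overlapped, at 45.1, 83.1 and 68.3 normalized CPM in untreated and 54.25 and 59.7 in KCl cultures, with a log2 fold change of -0.20 ± 0.20. Its RF values did not overlap, at 30.8, 25.4 and 27.15 against 16.9 and 17.6, with a log2 fold change of -0.69 ± 0.23. In KCl cultures these values rest on 19 and 38 footprints.

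Crtc2 (chromosome 3, 90254163 to 90264125, plus strand), the coactivator best known from liver gluconeogenesis, was below the filter in all 5 cultures. Its RNAseq values were 31.5, 24.2 and 32.3 normalized CPM in untreated and 36.6 and 47.3 in KCl cultures, which did not overlap, with a log2 fold change of 0.58 ± 0.23. Its RF values overlapped, at 9.003, 13.0 and 12.2 against 10.7 and 9.74, with a log2 fold change of -0.07 ± 0.34 over 12 to 64 footprints per library.

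Sik1 (chromosome 17, 31844250 to 31855804, minus strand) had RNAseq values of 19.1, 23.0 and 23.7 normalized CPM in untreated cultures and 106 and 83.55 in KCl cultures. Its RF values were 20.4, 22.35 and 22.5 against 118 and 143. The groups were far apart in both assays, with a log2 fold change of 2.11 ± 0.20, or 4.31-fold, in RNAseq and of 2.62 ± 0.16, or 6.14-fold, in RF. Sik1 passed the filter only through the KCl cultures.

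Counted over the measured members with 1 transcript per gene, 4 of 5 were called higher in RNAseq and none lower, where 17.3% of 4369 genes were called higher and 15.4% lower. In RF 3 were called higher and 1 lower, where 20.8% of genes were called higher and 19.4% lower. In TE none of the 5 was called, where 1.56% of genes were called higher and 4.3% lower. The direction of the background depended on the scaling: over the 7262 transcripts, 1300 were called higher and 1095 lower in RNAseq and 1511 and 1460 in RF, which became 1052 and 1533 in RNAseq and 1073 and 2107 in RF when scaled by library totals, a change that moved the median log2 fold change by -0.094 and -0.133. Since this contrast chose the members and 2 of the 5 passed the filter only through the KCl cultures, nothing is read from these counts.

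TE was the ratio of RF to RNAseq normalized CPM in a culture, and its change is given by the interaction of assay and treatment. For Crem the ratios were 1.04, 0.546 and 0.509 in untreated and 0.535 and 0.719 in KCl cultures, which overlapped, and the log2 change was -0.13 ± 0.30. The 15 Crem transcripts ranged from -0.34 to 0.37, each with overlapping groups. Atf3 ratios were 0.728, 0.897 and 0.874 against 1.06 and 0.822, with a log2 change of 0.17 ± 0.24. The RNAseq and RF changes of both genes were of similar size on the log2 scale.

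Sik1 ratios were 1.07, 0.971 and 0.948 in untreated and 1.11 and 1.72 in KCl cultures. Both KCl values lay above the untreated ones, and the log2 change of 0.48 ± 0.28 became 0.16 without KCl culture 5 and 0.79 without KCl culture 4. Atf2 ratios overlapped, at 0.308, 0.501 and 0.2725 against 0.201 and 0.323, with a log2 change of -0.46 ± 0.25. That change became -0.16 without untreated culture 2, -0.15 without KCl culture 4 and -0.84 without KCl culture 5. The coactivator ratios were lower on average in KCl cultures, with log2 changes of -0.30 ± 0.29 for Crtc1, -0.71 ± 0.42 for Crtc2 and -0.54 ± 0.33 for Crtc3. Among the coactivators, only the Crtc1 ratios (0.760, 0.7575 and 0.679 against 0.640 and 0.561) did not overlap between groups. The share of all transcripts with TE groups apart was not computed, so nothing is read from this or from the Sik1 ratios. The Crtc3 value became -0.14 without untreated culture 1 and -0.89 without untreated culture 2.

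**Figure D4:**
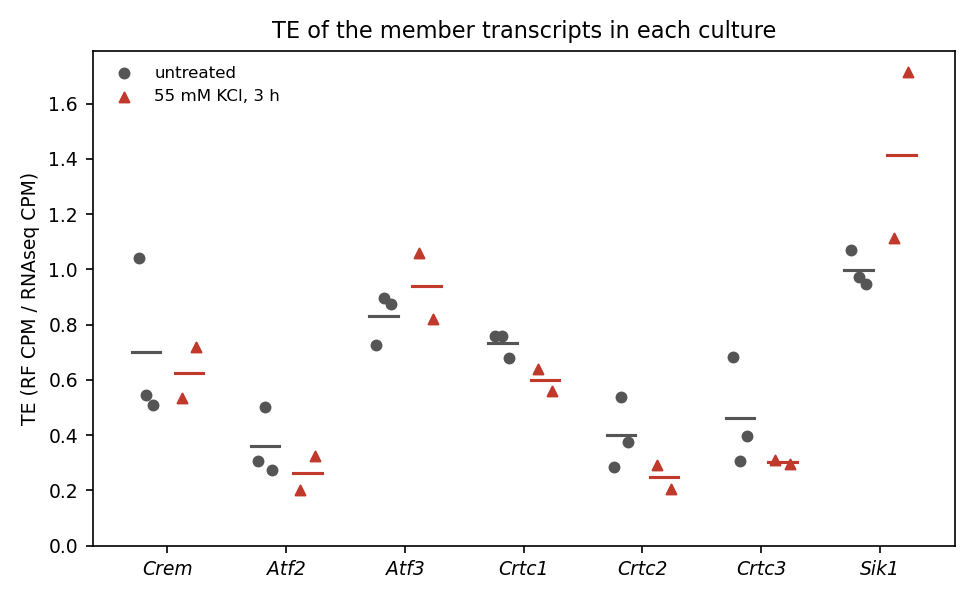
TE, the ratio of RF to RNAseq normalized CPM in the same culture, for the representative transcript of 7 members, with 1 point per culture (grey circles, untreated; red triangles, KCl) and a bar at each mean. The ratios compare cultures within a gene and not genes with each other; the KCl points of Sik1 are spread from 1.11 to 1.72.

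Levels of different genes were compared per length, in RPKM. In untreated cultures the mean RNAseq levels ran from Atf2 (22.9 ± 3.03 RPKM, SD, n = 3) and Atf3 (18.1 ± 1.57) through Crtc1 (10.4 ± 1.45), Crtc3 (10.2 ± 3.00) and Crtc2 (8.48 ± 1.30) to Crem (5.48 ± 1.75) and Sik1 (3.86 ± 0.47). Neighbours overlapped in this order except Atf3 and Crtc1, and Crtc2 and Crem. In KCl cultures the order was Atf3 (59.1 RPKM), Crem (40.2), Atf2 (28.9), Sik1 (15.8), Crtc2 (11.5), Crtc3 (8.38) and Crtc1 (6.52), and only Crem and Atf2 overlapped. Crem and Sik1 were the lowest of the 7 in untreated cultures, and the Crem level includes reads of all transcripts that share its exons.

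In RF the order in untreated cultures was Atf3 (51.9 RPKM), Atf2 (21.65), Crtc1 (21.2), Crtc3 (11.1), Crem (9.98), Sik1 (6.91) and Crtc2 (4.08). Atf2 and Crtc1 overlapped, as did Crtc3 and Crem. In KCl cultures it was Atf3 (186 RPKM), Crem (68.9), Sik1 (38.9), Atf2 (19.35), Crtc1 (10.85), Crtc3 (6.46) and Crtc2 (3.42), with no overlap between neighbours.

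The rest of the pathway was followed through 8 lists of 103 genes, grouped by function and none a member, of which 47 were measured. Of the 47, 20 rose and 5 fell in RNAseq, 21 rose and 7 fell in RF, and 1 rose and 2 fell in TE, in edgeR's quasi-likelihood test with Benjamini-Hochberg adjustment over all measured transcripts. Over all 4369 genes, 17.3% were called higher and 15.4% lower in RNAseq, 20.8% and 19.4% in RF, and 1.56% and 4.3% in TE. Scaled by library totals, 19 of the 47 rose and 9 fell in RNAseq, 19 rose and 10 fell in RF, and none rose and 2 fell in TE. The filter bore on these counts: Creb5, Nr4a2, Egr2 and Ppargc1a passed it only through the KCl cultures, and Camk1d, Strada, Kat2a, Hdac5, Creb3l1 and Creb3l2 only through the untreated ones, so that a difference was favoured in them. Of the 37 that passed through both groups, 15 rose and 0 fell in RNAseq, and 17 rose and 3 fell in RF. The median log2 fold change over the 47 was 0.23 in RNAseq and 0.43 in RF, beside medians of -0.01 and -0.01 over all 4369 genes. By list, the medians were 1.76 and 2.39 for the target genes described next. Those of the other lists lay from -0.12 to 0.48 in RNAseq and from -0.36 to 0.64 in RF. The lists were chosen with earlier results of these data known, so nothing is read from these medians. RNAseq, RF and TE are computed from libraries of the same cultures, so a gene's 3 values are not independent of one another.

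Textbook CRE-driven target genes were the list with the most calls, and they were listed as targets with earlier results of these data known. Of the 22, 10 were measured, and 7 of these passed the filter through both groups. All 7 rose in both assays, from a log2 fold change of 1.03 to 3.02 in RNAseq and of 0.99 to 2.64 in RF, and the KCl values of each lay above its untreated values. Nfil3, a bZIP repressor, rose by 3.02 ± 0.15 in RNAseq (edgeR adjusted p = 1.7e-19) and 2.64 ± 0.13 in RF. Dusp1, a phosphatase of MAP kinases whose promoter holds the palindrome, rose by 2.10 ± 0.17 (adjusted p = 3.3e-13) and 2.44 ± 0.18. The other 5 (Fos, Junb, Per1, Gem and Ier2) rose by 1.03 to 1.59 in RNAseq, and the RNAseq call of Ier2 was lost with reads on the CDS only (adjusted p = 0.059).

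The remaining 3 targets passed only through the KCl cultures, so that their being measured favoured a higher KCl value, and their changes are given as a description. Nr4a2, an orphan nuclear receptor, had log2 fold changes of 5.17 ± 0.21 in RNAseq and 5.90 ± 0.21 in RF. Those of Egr2, a zinc finger factor, were 2.85 ± 0.25 and 2.61 ± 0.27, and those of Ppargc1a, a coactivator of mitochondrial genes, 1.94 ± 0.17 and 2.62 ± 0.15. The KCl values of each lay above its untreated values.

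Fos was the only gene of the 47 to rise in TE, by 0.70 ± 0.23 (edgeR adjusted p = 0.039), a call that was lost under 10 of 14 alternatives, with adjusted p-values of 0.14 with DESeq2, 0.06 with library totals and 0.69 without KCl culture 5. The other 9 targets had TE changes from -0.38 to 0.72 that did not pass.

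Other ATF and CREB factors were called in both directions, but only those that passed the filter through untreated cultures alone were called lower. Of 8 measured, 5 rose and 2 fell in RNAseq, and 3 rose and 2 fell in RF. Of the 5 that passed through both groups, 4 rose and 0 fell in RNAseq, and 2 rose and 0 fell in RF. Over all 4369 genes, 17.3% were called higher and 15.4% lower in RNAseq, and 20.8% and 19.4% in RF. Atf4, the effector of the integrated stress response, rose by 2.21 ± 0.13 in RNAseq (edgeR adjusted p = 2.5e-17) and 2.44 ± 0.18 in RF, and Creb5, which passed the filter only through the KCl cultures, had changes of 1.78 ± 0.22 and 1.63 ± 0.28. The ER-anchored factors differed. Atf6, a sensor of unfolded protein, rose by 0.74 ± 0.14 in RF (edgeR adjusted p = 0.00011). Creb3l1 was lower by 0.93 on the log2 scale in RNAseq (SE 0.21) and by 1.31 in RF (SE 0.25), and Creb3l2 by 0.60 in RNAseq (SE 0.18). Since Creb3l1 and Creb3l2 passed the filter only through the untreated cultures, a lower KCl value was favoured in them, and their changes are a description. The RNAseq call of Creb3l2 was lost with reads on the CDS only (adjusted p = 0.087), without untreated culture 2 (0.074) and without KCl culture 4 (0.075), and its RF call under 6 of 12 alternatives. Crebzf rose by 0.79 ± 0.21 in RNAseq, a call lost with reads on the CDS only (adjusted p = 0.24). Atf5 lost its RNAseq call in the same way (0.91) and without KCl culture 5 (0.65).

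**Figure D5:**
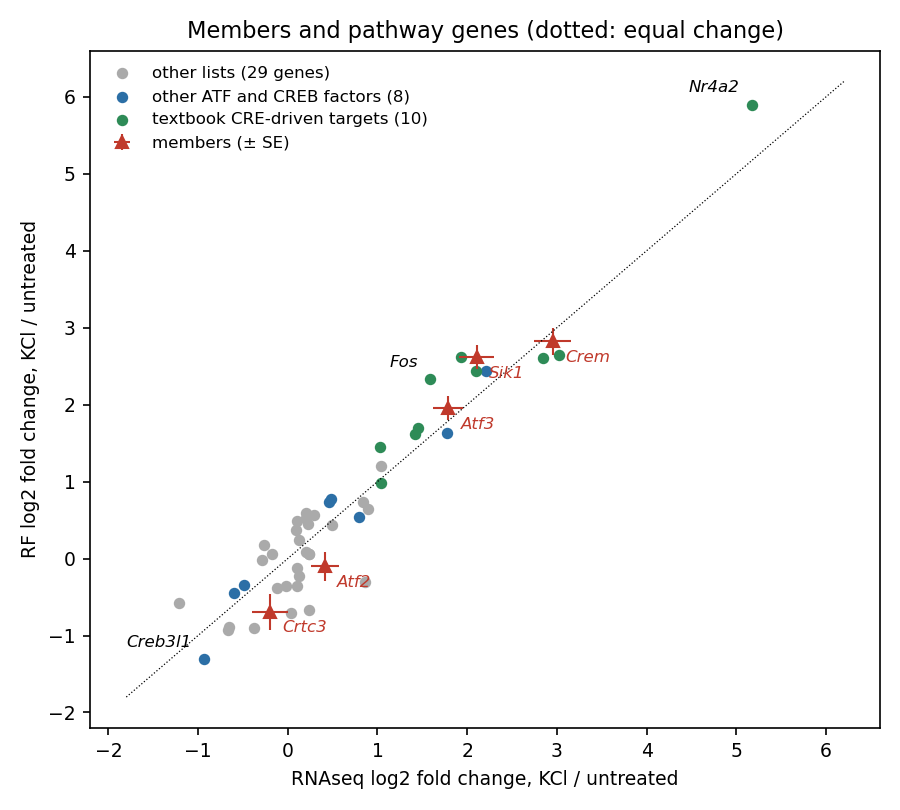
RF against RNAseq log2 fold change of KCl over untreated cultures for 47 measured pathway genes (points, coloured by list) and the 5 measured members (red triangles with approximate SE bars); the dotted line marks equal change. The 10 measured target genes (green) lie above 0 on both axes, 3 of them (Nr4a2, Egr2 and Ppargc1a) measured only through the KCl cultures, and Crem, Sik1 and Atf3 lie among them, between Fos and Nr4a2 in RNAseq.

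Among the kinases and their partners, Sik3 was the only other SIK gene to rise, by 1.04 ± 0.13 in RNAseq (edgeR adjusted p = 5.5e-08) and 1.20 ± 0.11 in RF, and Sik2 had values of 0.10 ± 0.18 and -0.12 ± 0.14. Strada, the pseudokinase partner of LKB1, was lower by 1.22 on the log2 scale in RNAseq (SE 0.28). It passed the filter only through the untreated cultures, so a lower KCl value was favoured in it and its change is a description. Its edgeR call was lost with RNAseq reads on the CDS only (adjusted p = 0.087). The products of 14-3-3 genes hold phosphorylated CRTCs in the cytoplasm, and 3 of these genes rose in RF, Ywhab by 0.52 ± 0.09, Ywhae by 0.43 ± 0.07 and Ywhag by 0.48 ± 0.09. In all, 2 of the 8 measured genes of this list rose and 1 fell in RNAseq, and 5 rose and 1 fell in RF. Stk11, which encodes LKB1, fell in RF and by 0.91 in TE (SE 0.29, adjusted p = 0.032), and neither call passed with DESeq2 (adjusted p = 0.13 and 0.18), nor under 5 of 12 alternatives in RF and 7 of 14 in TE, DESeq2 included. The RNAseq call of Ywhae was lost with reads on the CDS only (adjusted p = 0.15).

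Of the cAMP and PKA genes, only the regulatory subunit Prkar1a moved among 5 measured, by 0.89 ± 0.13 in RNAseq (edgeR adjusted p = 3e-07) and 0.64 ± 0.08 in RF, and the catalytic subunit Prkaca had values of -0.01 ± 0.13 and -0.36 ± 0.20. The only phosphodiesterase measured, Pde4b, rose by 0.37 ± 0.14 in RF (adjusted p = 0.032). Of 6 measured calcium and ERK arm kinases, Camk1d was lower in both assays, by 0.66 (SE 0.17) in RNAseq and 0.89 (SE 0.16) in RF. It was measured only through the untreated cultures, so a lower KCl value was favoured in it and its changes are a description. Its RNAseq call was lost with reads on the CDS only, at -0.37 (adjusted p = 0.57), and without KCl culture 5 (adjusted p = 0.056). The genes Camk2b, Camk2d, Camk2g and Mapk3 did not pass in either, at 0.12 to 0.24 in RNAseq.

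None of the 5 calcineurin genes passed in RNAseq, and Ppp3cb and Rcan3 fell in RF, by 0.36 (SE 0.13) and 0.90 (SE 0.32). Of 4 chromatin genes measured, Ep300, the paralogue of Crebbp, rose by 0.83 ± 0.14 in RNAseq (edgeR adjusted p = 8.7e-06) and 0.73 ± 0.11 in RF. Kat2a was lower by 0.66 (SE 0.18) in RNAseq and 0.93 (SE 0.21) in RF. It was measured only through the untreated cultures, so a lower KCl value was favoured in it and its changes are a description. Hdac5, a class IIa deacetylase held in the cytoplasm by SIK and CaM kinases, rose by 0.86 ± 0.17 in RNAseq, had an RF value of -0.31 ± 0.21 and fell by 1.18 in TE (SE 0.27, adjusted p = 0.0011), which DESeq2 put at an adjusted p of 0.058 and which was 0.13 without KCl culture 5. It too was measured only through the untreated cultures, so that a difference was favoured in it, and nothing is read from its p-values. The RF calls of Pde4b, Ppp3cb, Rcan3, Cab39 and Creb3l2 also did not pass with DESeq2, nor did the RNAseq call of Atf6 (adjusted p = 0.07).

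The genes most like Crem and Sik1 over the 10 libraries were found by Euclidean distance between log2 CPM values, each less the untreated mean of its assay. For Crem they were Fosl2 (0.74), Nfil3 (0.83), Egr2 (1.04), Mafk (1.15) and Klf5 (1.16), all genes of transcription factors, beside a median distance of 5.86 over 4364 other genes. For Sik1 they were Rbbp6 (0.43), Zkscan5 (0.46), Thbs1 (0.58), Ppargc1a (0.58) and Dusp1 (0.66), beside a median of 4.73. Their RNAseq and RF log2 fold changes lay from 2.76 to 3.11 and from 2.61 to 3.23 for the 5 nearest to Crem, and from 1.94 to 2.23 and from 2.29 to 2.67 for the 5 nearest to Sik1. Distances are over the same libraries as the changes, and are a description.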

How the data were processed

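RNAseq and RF libraries of 5 cultures were used, grouped by their labels. The authors trimmed reads with Trimmomatic 0.32, removed rRNA with STAR 2.3.1z8, aligned the rest with Bowtie2 2.2.2 to an mm10 transcriptome stripped of degenerate sequence, and deposited raw read counts per transcript region from bedtools 2.20.1. The region letters were matched to the 5′UTR, CDS and 3′UTR by annotated length, and 1 region was left unnamed. A read on an exon of several transcripts is counted for each. Names, lengths and coordinates came from GENCODE (GRCm38), which matched 98.4% of transcripts. Libraries of a group differed beyond sampling noise. Nothing states whether cultures came from separate animals, so the spread may be partly technical.

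RNAseq values are counts on all regions, RF values counts on the CDS, and normalized CPM use TMM within the assay. The KCl effect was tested with edgeR 4.0.16 (quasi-likelihood, robust) in R 4.3.3, with Benjamini-Hochberg adjustment and a threshold of 0.05. The SE given is approximate, the absolute log2 fold change over the square root of F. The TE fit took the assay-by-treatment term, blocked by culture number, since RNAseq and RF of a number come from one lysate. The deviations of such libraries from their group means correlated at -0.07 to 0.07. The fits were tested on simulated counts. Each gene is represented by its transcript with the most RNAseq reads, values of unmeasured members come from the fit without the filter, and list genes that were called could be named. With 3 against 2 cultures an exact permutation test cannot go below p = 0.1, so none was used. Members, lists and the genes compared were chosen with earlier results of these data known. The alternatives were DESeq2 1.42.0, other scalings, filters and regions, no block, 1 transcript per gene, and leaving out each culture. Median measured transcripts had 70 to 379 RF reads per library. The values of 1 list gene are not reported here.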

Additional observations from a re-analysis of the deposited data

Results flagged for a closer look

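Footprints outside the CDS, which the comparisons above used only for shares of the 5′UTR, were looked at in the 56 untranslated regions of the 28 member transcripts, which held 33 different sets of counts. In 8 of the 33 both KCl cultures exceeded all 3 untreated cultures in normalized CPM with at least 10 KCl footprints in all. The share over all untranslated regions of the series was not computed, so nothing is read from this count. On the CDS, with no such minimum, 30.2% of all measured transcripts had their RF groups apart in that direction. No difference was tested here, and causes were not tested. On the Atf3 5′UTR the mean over the KCl cultures was 22.8 normalized CPM, from 21 and 58 footprints, where the highest untreated culture had 5.08, and the region's share of 5′UTR and CDS footprints was 9.33% to 10.6% without KCl and 10.8% and 16.4% with it. On the Sik1 5′UTR it was 6.15, from 6 and 15 footprints, against at most 1.21. As a share of its 5′UTR and CDS footprints, this was 5.6%, 2.66% and 0% without KCl and 4.32% and 4.63% with it, so the shares overlapped. On the 5′UTR of the Atf2 transcript ENSMUST00000090802 the mean was 23.7, from 23 and 58 footprints, against at most 17.5. The groups overlapped on every other Atf2 5′UTR with footprints. That of the representative transcript ENSMUST00000055833 had 18.9, 11.8 and 19.7 normalized CPM in untreated and 18.7 and 29.7 in KCl cultures. On the 5′UTRs of 3 internal Crem transcripts it was 5.47 against at most 2.60 for ENSMUST00000049942, 7.77 against at most 3.46 for ENSMUST00000124747 and 7.5 against at most 2.60 for ENSMUST00000139537, and of these regions 0, 29 and 14 nt are coding in other Crem transcripts in the counts. On the 57 nt 5′UTR of ENSMUST00000140332 it was 3.17, from 4 and 6 footprints, against at most 0.173, and 15 nt of it are coding in other Crem transcripts. On the Crem 3′UTR of ENSMUST00000082141, whose reads 7 other transcripts share, it was 4.95, a mean of 7.11 in KCl culture 4 and 2.78 in KCl culture 5, from 8 and 6 footprints, against at most 2.25, and 142 of its 1632 nt are coding in 5 other Crem transcripts.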

How the results depend on the processing

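Crem, Sik1 and Atf3 kept higher RNAseq and RF values in KCl cultures under every alternative run, with log2 fold changes from 2.60 to 3.23, 1.78 to 2.27 and 1.57 to 1.88 in RNAseq and from 2.62 to 2.94, 2.46 to 2.74 and 1.76 to 2.16 in RF. Crtc3 stayed lower in RF (-0.82 to -0.58). The TE changes ranged from -0.37 to 0.23 for Crem, 0 to 0.37 for Atf3, 0.16 to 0.79 for Sik1, -0.85 to -0.15 for Atf2 and -0.89 to -0.14 for Crtc3. Over all transcripts the RNAseq effect gave 2395 calls, and 4141 with no filter beyond 1 read, 4232 with filterByExpr, 1529 with RNAseq reads on the CDS, 1442 with 1 transcript per gene and 1638 to 2637 without one culture. RF gave 2971 calls, and 5311 with no filter beyond 1 read, 5330 with filterByExpr, 1744 with 1 transcript per gene and 1698 (without KCl culture 5) to 3233 without one culture. TE gave 421 calls, and 172 with DESeq2, 266 with RNAseq reads on the CDS, 262 with 1 transcript per gene, and 70 (without KCl culture 5) to 547 without one culture, with 143 without KCl culture 4. The filters and 1 transcript per gene change how many transcripts are tested, and otherwise the cause was not tested. With no replicate block, TE gave 420 calls, and the pairing by culture changed no call among the 3 pathway genes called in TE. A single fit of all 10 libraries with no replicate block gave 2780 RNAseq and 2617 RF calls. Pathway calls ranged from 18 to 29 in RNAseq and from 22 to 30 in RF. In TE the 3 became 0 with DESeq2, 1 with no filter, with filterByExpr and with RF reads on all regions, and 0 to 3 without one culture. Of 56 pathway gene values called, 17 lost the call under at least 1 alternative, and 1 reversed, the RF value of Stk11, at 0.039 with RF reads on all regions. The Crem coding exons were compared under settings chosen after the data had been seen. Without one culture, the shared exons changed by 3.54 to 4.23 in RNAseq and 3.38 to 3.64 in RF, and the upstream exons by -1.68 (without KCl culture 5) to 1.32 in RNAseq and -0.14 (without KCl culture 5) to 0.60 in RF, on the log2 scale. With another long transcript the upstream exons changed by up to 1.39 in RNAseq and 0.47 in RF. Depth limits the upstream exons, which had 1 to 9 RNAseq reads per library, and RF in untreated culture 3 and KCl culture 4.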
